A study of Mus musculus with 6 samples.

Results

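The Serpin family was examined in tuft-like and non-tuft-like medullary thymic epithelial cells (mTEC) of the mouse. Members were all protein-coding genes of the count table whose symbol starts with Serpin, which gave 61 of 52636 gene rows. The letter after Serpin names the clade, and the members fell into 9 clades, with 24 genes in clade A, 26 in clade B, 3 in clade E, 2 each in clades F and I, and 1 each in clades C, D, G and H. Serpins share a fold in which an exposed loop is cut by a target protease, and most of them trap that protease in an inactive complex, while a few carry hormones or assist protein folding instead. mTEC transcribe many genes that are otherwise restricted to peripheral tissues, some of them under the control of Aire or Fezf2, and show the products to developing T cells. Tuft-like mTEC resemble the chemosensory tuft cells of gut and airway, and other mTEC states resemble keratinocytes. No peripheral tissue was sequenced, so whether a Serpin gene is restricted to a tissue could not be checked in these libraries, and the family is described here by its symbols.

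Tuft-like and non-tuft-like mTEC were each represented by 3 libraries, prepared with an ultra-low input kit from sorted thymus cells of C57BL/6 mice at 6 weeks of age, with no modified allele and no treatment named for either population. Cells of both populations were UEA+ and MHCIIlo and lacked CD80, Sca1 and CD63. Tuft-like cells were positive for CD117 (the product of Kit) and CD66a (the product of Ceacam1), and non-tuft-like cells were negative for both, so that the latter population is defined by what it lacks. Neither the labels nor the methods say whether each library came from separate mice or from pooled mice, so that p-values measure the spread between these libraries only. The labelled identity was checked on marker genes. All 10 genes of the tuft list were higher in tuft-like mTEC by edgeR's quasi-likelihood test (false discovery rate, FDR, under 0.05), and their median log2 fold change was 4.27. Their summed level was 729 ± 85.7 CPM (a gene's reads scaled by the library total) in non-tuft-like and 13210 ± 3170 CPM in the tuft-like ones (mean ± SD, n = 3 each). CPM are normalized by the trimmed mean of M values (TMM), a log2 fold change above 0 means a higher level in tuft-like cells, and its standard error is given as SE. Kit, a gene of the sort itself, had 185, 176 and 141 CPM in the non-tuft-like libraries and 301, 451 and 433 CPM in the tuft-like ones (edgeR FDR 0.0678), and Ceacam1 had 11.4, 6.58 and 18.1 and 174, 179 and 273 CPM (edgeR FDR 0.000886). Aire fell from 292 ± 53.3 to 20.5 ± 2.56 CPM (edgeR log2 fold change -3.83, FDR 0.000334) and Fezf2 from 231 ± 20.1 to 35.1 ± 6.80 CPM (edgeR log2 fold change -2.72, FDR 0.000886), so that the non-tuft-like cells, although sorted as MHCIIlo and CD80-, held transcripts of mature mTEC. Of 9 genes of the mature mTEC list, 5 were called lower in tuft-like mTEC. In bulk RNA, fewer cells of a type and less RNA per cell cannot be told apart.

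The libraries differed in ways that the populations do not explain. In order of replicate number, reads counted on genes were 32582788, 48369825 and 28704373 for non-tuft-like and 20097617, 34243912 and 45928255 for tuft-like mTEC. Reads that fell on no gene made up 34.4%, 36.6% and 52.5% of all rows in the former and 61.6%, 47.6% and 19.7% in the latter. Tuft-like replicate 1 had the largest and tuft-like replicate 3 the smallest share of such reads. At least 1 read was counted for 54, 58 and 60 of the 61 Serpin genes in the non-tuft-like libraries and for 60, 57 and 35 in the tuft-like libraries. Tuft-like replicate 3 thus had 26 Serpin genes at 0, all of them counted in another library. With a floor of 3 counts, a count of 0 allowed a level of up to 0.0639 to 0.124 CPM, depending on the library, for counting error only. As a measure of background, each member's reads per kilobase of exon were set against the 99th percentile of 1134 olfactory receptor genes in the same library. This level was exceeded by 35, 34 and 28 Serpin genes in the non-tuft-like and by 21, 22 and 25 in the tuft-like libraries. Thus the number of genes with any read was smallest in the library with the fewest reads outside genes, whereas the number over background stayed between 21 and 35. The part of reads outside genes in the low Serpin counts was not tested.

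**Figure D1:**
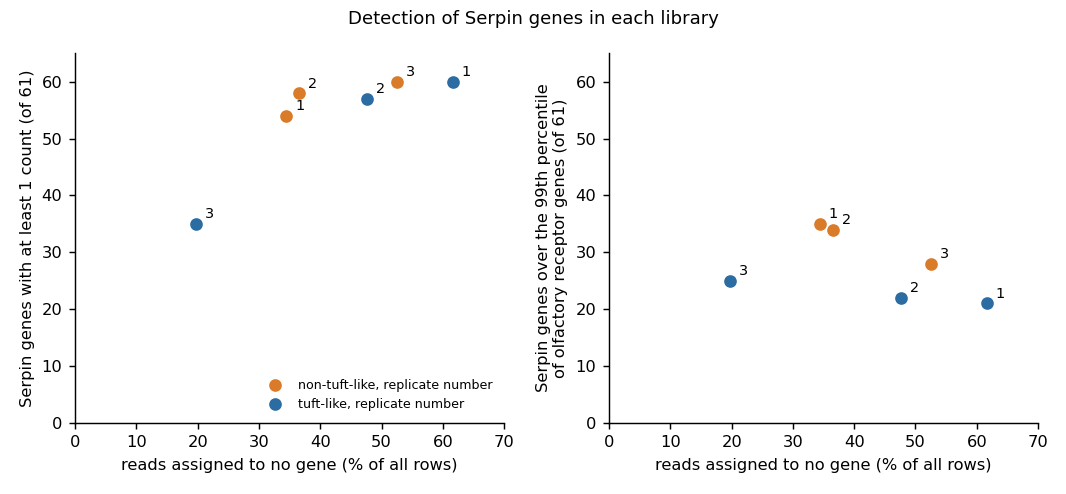
Number of Serpin genes (of 61) with at least 1 count (left) and over the 99th percentile of olfactory receptor genes per kilobase of exon (right) in each library, against the reads assigned to no gene as a percentage of all rows. Each point is a library with its replicate number, orange for non-tuft-like and blue for tuft-like. Tuft-like replicate 3, with 19.7% of reads outside genes, has 35 genes counted, against 54 to 60 in the other libraries, while on the right it has 25.

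Serpin transcripts were less abundant in tuft-like mTEC. Their summed level was 2674, 2441 and 2157 CPM in the non-tuft-like libraries and 912, 1000 and 1572 CPM in the tuft-like ones, without overlap, and the means were 2424 ± 259 and 1161 ± 358 CPM (SD, n = 3 each). The largest contributor was Serpinb1a with 24% of the sum in non-tuft-like and 29.6% in tuft-like libraries. Of the 61 genes, 57 passed edgeR's filter on low counts and were tested among 32496 genes. The other 4, Serpina1f, Serpina5, Serpinb3d and Serpinb6e, did not pass. Serpina3g and Serpina3i were called lower in tuft-like mTEC, and 0 members were called higher. Among all tested genes 0.951% were called lower and 1.16% higher, or 2.11% in either direction. At an unadjusted p under 0.05, 11 Serpin genes were lower and 1 was higher by the same test, beside 4.59% and 4.38% of all tested genes. DESeq2, which gave an adjusted p to 39 of the 57 members and to 18579 genes in all, called 9 members lower and 1 higher, beside 5.01% and 5.24% of those genes (10.2% in either direction), and limma voom 4 lower, beside 1.37%. Among genes with at least 10 CPM in at least 3 libraries, 7 of 21 Serpin genes were called lower and 0 higher by edgeR, beside 5.86% and 7.08%. In 17 of the 57 tested members every tuft-like library lay below every non-tuft-like library, and in 2, Serpinb9e and Serpine3, every tuft-like library lay above. Over all tested genes 8.85% lay below without overlap and 7.18% above, or 16.0% in either direction. The log2 fold change was below 0 in 43 of 57 members, with a median of -0.76, against 49.0% of all tested genes and a median of 0.02. Many members of clades A and B lie in genomic clusters, and some share sequence, so these counts do not come from independent genes. The number below 0 was 40 of 59 members without tuft-like replicate 3 and 49 of 58 without tuft-like replicate 1, and the median of the members stayed between -1.26 and -0.67 under all 15 alternative settings.

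**Figure D2:**
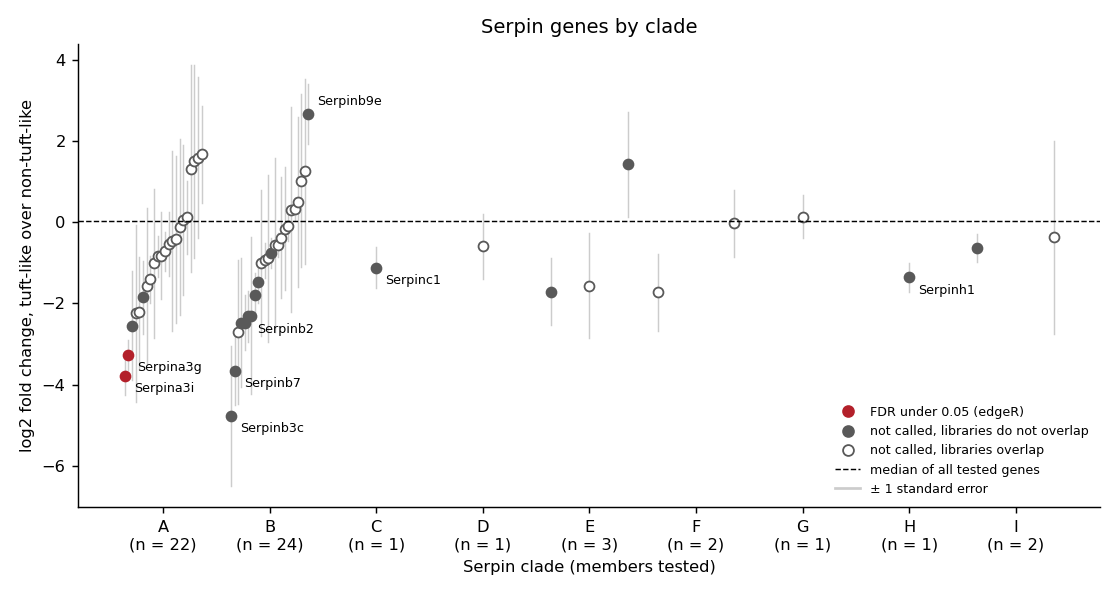
Log2 fold change (tuft-like over non-tuft-like) of the 57 tested Serpin genes by clade, each point a gene with ± 1 standard error. Red marks an edgeR FDR under 0.05, filled grey a gene not called whose libraries do not overlap between the populations, and open grey a gene whose libraries overlap. The red points are Serpina3g and Serpina3i, and 43 of 57 points lie below 0, while the dashed median of all tested genes lies at 0.02.

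Clade A holds secreted inhibitors and hormone carriers of plasma together with the expanded Serpina3 group, the mouse relatives of antichymotrypsin. Its members added up to 517 ± 96.7 CPM in the non-tuft-like libraries and 179 ± 77.3 CPM in the tuft-like ones, and of 22 tested members 2 were called lower and 0 higher. Their median log2 fold change was -0.77. The clade's called genes are near neighbours in the cluster on chromosome 12. Serpina3g (ENSMUSG00000041481, chr12:104236245-104241939 of mm10, plus strand), known as an intracellular inhibitor of lysosomal cathepsins, had 144, 169.9 and 141 CPM in the non-tuft-like libraries and 15.6, 8.71 and 22.8 CPM in the tuft-like ones. Every tuft-like library was far below every non-tuft-like library. The means were 152 ± 15.8 and 15.7 ± 7.06 CPM (SD, n = 3 each), with a log2 fold change of -3.27 (SE 0.38, FDR in edgeR 0.00158). Serpina3i (ENSMUSG00000079014, chr12:104263122-104269372, plus strand), a close relative, had 57.2, 85.9 and 60.9 CPM in the non-tuft-like libraries and 7.11, 5.203 and 2.46 CPM in the tuft-like ones, again without overlap. Its means were 67.99 ± 15.6 and 4.92 ± 2.34 CPM (SD, n = 3 each), and the log2 fold change was -3.79 (SE 0.46, FDR in edgeR 0.0019). Both genes were called in 15 of 15 alternative settings, with log2 fold changes from -3.69 to -2.98 for Serpina3g and from -4.24 to -3.51 for Serpina3i. For single genes an exact two-sided permutation test over 3 libraries against 3 cannot give a p under 0.10, and both genes were at that value.

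Reads of the Serpina3 group can be hard to place, since its members are similar. Of all 50-base stretches of its annotated transcripts, Serpina3g shared 15.5% and Serpina3i 15.9% with other genes, for both most often with the transcribed pseudogene Serpina3h. The next members of the cluster did not follow the same pattern. Serpina3j (chr12:104314553-104320725), which lies just beyond Serpina3i and shares 3.13%, had 159, 88.8 and 63.8 CPM in the non-tuft-like libraries and 45.8, 35.1 and 109 CPM in the tuft-like ones. The populations overlapped (edgeR log2 fold change -0.72, SE 0.47, FDR 0.968), and Serpina3j was the leading clade A gene of tuft-like mTEC per kilobase of exon. Serpina3f, the neighbour on the other side, had 10.03, 8.39 and 8.68 and 12.3, 3.21 and 3.23 CPM, with the highest value in tuft-like replicate 1 (edgeR log2 fold change -0.53, FDR 1). The difference in fold change between these neighbours was not tested. The other 6 members of the Serpina3 group, Serpina3a, Serpina3b, Serpina3c, Serpina3k, Serpina3m and Serpina3n, had means of at most 2.11 CPM in either population and were all at 0 in tuft-like replicate 3.

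The sequences upstream of these neighbours are shown because genes of the Serpina3 group differed in whether they were called. Those of Serpinb2 and Serpinb7 are shown as well. Serpinb2 is the most abundant member of the chromosome 1 cluster described below, and Serpinb7 is its abundant member of largest fold change. Each run gives the 250 bases before a RefSeq gene start, written 5′ to 3′ on the gene's strand, from build GRCm38.p6. Capitals mark matches, on either strand, to TATAAA (the TATA box), TTCNNNGAA (a gamma-activated site), ATGCAAAT (the octamer) or the kappa B motif. These motifs were searched as letters only.
Serpina3f, chr12:104214294-104214543, plus strand: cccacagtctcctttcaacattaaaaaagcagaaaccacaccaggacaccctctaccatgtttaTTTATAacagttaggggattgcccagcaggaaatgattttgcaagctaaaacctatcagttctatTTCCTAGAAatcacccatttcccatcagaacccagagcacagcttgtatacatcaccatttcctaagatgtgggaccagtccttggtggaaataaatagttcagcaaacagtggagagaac
Serpina3g, chr12:104235897-104236146, plus strand: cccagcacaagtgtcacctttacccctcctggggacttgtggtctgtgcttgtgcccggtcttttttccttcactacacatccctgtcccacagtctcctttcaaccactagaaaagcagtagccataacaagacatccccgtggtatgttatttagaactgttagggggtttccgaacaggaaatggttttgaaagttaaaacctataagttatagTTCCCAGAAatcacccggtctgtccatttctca
Serpina3i, chr12:104262872-104263121, plus strand: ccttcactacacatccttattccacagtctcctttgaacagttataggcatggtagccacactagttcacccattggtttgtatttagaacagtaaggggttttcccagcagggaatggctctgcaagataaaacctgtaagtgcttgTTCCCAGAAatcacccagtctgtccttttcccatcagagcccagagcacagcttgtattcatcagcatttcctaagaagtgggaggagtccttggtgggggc
Serpina3j, chr12:104314320-104314569, plus strand: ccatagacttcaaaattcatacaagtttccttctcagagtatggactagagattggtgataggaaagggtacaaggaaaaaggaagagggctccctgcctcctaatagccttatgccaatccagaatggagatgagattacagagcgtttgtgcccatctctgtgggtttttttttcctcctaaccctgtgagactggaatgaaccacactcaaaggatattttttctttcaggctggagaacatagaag
Serpinb2, chr1:107511173-107511422, plus strand: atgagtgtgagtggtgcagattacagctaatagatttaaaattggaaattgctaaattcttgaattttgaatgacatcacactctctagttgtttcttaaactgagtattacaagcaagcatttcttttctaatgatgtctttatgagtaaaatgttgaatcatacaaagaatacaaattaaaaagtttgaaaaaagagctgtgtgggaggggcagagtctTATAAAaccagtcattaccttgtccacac
Serpinb7, chr1:107422439-107422688, plus strand: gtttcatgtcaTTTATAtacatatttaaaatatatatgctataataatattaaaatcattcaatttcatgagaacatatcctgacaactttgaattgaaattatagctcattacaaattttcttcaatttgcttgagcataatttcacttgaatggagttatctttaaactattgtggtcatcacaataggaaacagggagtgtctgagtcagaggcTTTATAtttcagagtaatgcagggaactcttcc
Serpina3g and Serpina3i each held TTCCCAGAA, a match to TTCNNNGAA, 33 and 102 bases before the start. Serpina3f, which was not called, held TTCCTAGAA, another match to TTCNNNGAA, 121 bases before the start shown, with TTTATA 186 bases before it, and the Serpina3j window held no match to any of these motifs. A match to TTCNNNGAA was thus found upstream of both called genes and of a neighbour that was not called. Serpinb2 held TATAAA 29 bases before the start, and Serpinb7 held the same letters on the opposite strand (TTTATA) 33 and 239 bases before it. RefSeq gives Serpina3f and Serpinb2 a further start each, not printed here, and the window of the further Serpinb2 start also held TTCCAAGAA, a match to TTCNNNGAA, 77 bases before that start. A gene was counted as holding a motif where any of its windows did. RefSeq windows could be matched to 52 of 61 Serpin genes. Of these, 26.9% held TATAAA, against 14.3% of 27025 genes of all kinds, and 15.4% held TTCNNNGAA, against 8.13%. The octamer was found in 3.85% of Serpin genes and 1.81% of all genes, and the kappa B motif in 0 of 52 and 1.36% of all genes. Windows of related Serpin genes can be alike, so these shares do not come from independent genes. The octamer matches, for instance, were those of Serpinb3b and Serpinb3c, within nearly the same letters. The differences in share were not tested. A match is a description of letters, not a site of binding, and a window without a match says nothing on the factor.

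Among the remaining clade A genes are plasma proteins made mainly by the liver. A list of 13 such serpins from clades A, C, D and F was measured in full. Of its 13 tested genes 0 were called in either direction (2 at an unadjusted p under 0.05, both lower, by edgeR, with a median of -0.82), and the summed level was 278, 195 and 132 CPM in the non-tuft-like libraries and 83.2, 70.4 and 134 CPM in the tuft-like ones, with overlap. The leading gene was Serpina7 (chrX:139079257-139085236 on the minus strand), the thyroxine-binding globulin, with 133, 87.6 and 49.5 and 12.4, 23.3 and 65.6 CPM. Serpina7 varied within each population and overlapped between them (edgeR log2 fold change -1.41, FDR 0.439). It was called in 1 of 15 alternative settings, without tuft-like replicate 3, its highest tuft-like library (edgeR FDR 0.0497). Serpinc1, antithrombin, had 22.8, 20.2 and 21.7 CPM in the non-tuft-like libraries and 11.5, 12.8 and 5.41 CPM in the tuft-like ones, without overlap (edgeR log2 fold change -1.12, SE 0.50, FDR 0.554), but 2942 bases of its exons overlap the antisense gene Zbtb37, and whether counting used strand is not given in the sources used here. Serpina10, the inhibitor that works with protein Z, had means of 39.8 ± 14.2 and 22.2 ± 14.9 CPM, and Serpina6, the corticosteroid carrier, had 7.26 ± 6.41 and 4.11 ± 2.12 CPM (SD, n = 3 each). For Serpind1, heparin cofactor II, the values were 18.1, 17.8 and 2.16 CPM in the non-tuft-like libraries and 5.87, 7.103 and 12.3 CPM in the tuft-like ones, and for Serpinf2, the plasmin inhibitor, 13.6, 15.1 and 1.88 and 4.17, 3.62 and 1.46 CPM. In both genes non-tuft-like replicate 3 lay well below the other non-tuft-like libraries.

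The 5 Serpina1 genes that encode forms of alpha-1-antitrypsin (Serpina1a to Serpina1e) had means between 0.502 and 9.18 CPM in both populations, and they shared between 29.5% and 79.3% of their 50-base stretches with other genes, most often with each other, so their single values are uncertain. Serpina1e went without overlap from 8.65, 4.98 and 13.9 CPM to 4.13, 0.526 and 0.0552 CPM by library but was not called (edgeR log2 fold change -2.55, SE 1.34, FDR 0.736). Serpina9, a serpin of germinal centre B cells, had 4.26, 6.79 and 19.9 CPM in the non-tuft-like libraries and 1.69, 2.78 and 4.09 CPM in the tuft-like ones, also without overlap (edgeR log2 fold change -1.85, FDR 0.63). Of the B cell genes Cd79a, Cd79b and Ms4a1, only Cd79b was called, and it rose from 8.42 ± 3.07 to 77.6 ± 27.3 CPM (edgeR log2 fold change 3.20, FDR 0.00317), while Cd79a and Ms4a1 had means of at most 5.55 CPM. Liver proteins outside the family were used for comparison. Of 14 such genes 1 was called lower and 0 higher, the median log2 fold change was -1.22, and their summed level was 574 ± 202 and 223 ± 71.2 CPM. The called gene was Hp, haptoglobin, with 70.9, 78.4 and 58.03 CPM in the non-tuft-like libraries and 13.5, 4.59 and 9.64 CPM in the tuft-like ones (edgeR log2 fold change -2.90, FDR 0.00612). Rbp4, the retinol carrier, made up 52.0% and 56.3% of that sum, and Alb, the most abundant protein of liver, had means of 4.86 and 3.88 CPM.

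**Figure D3:**
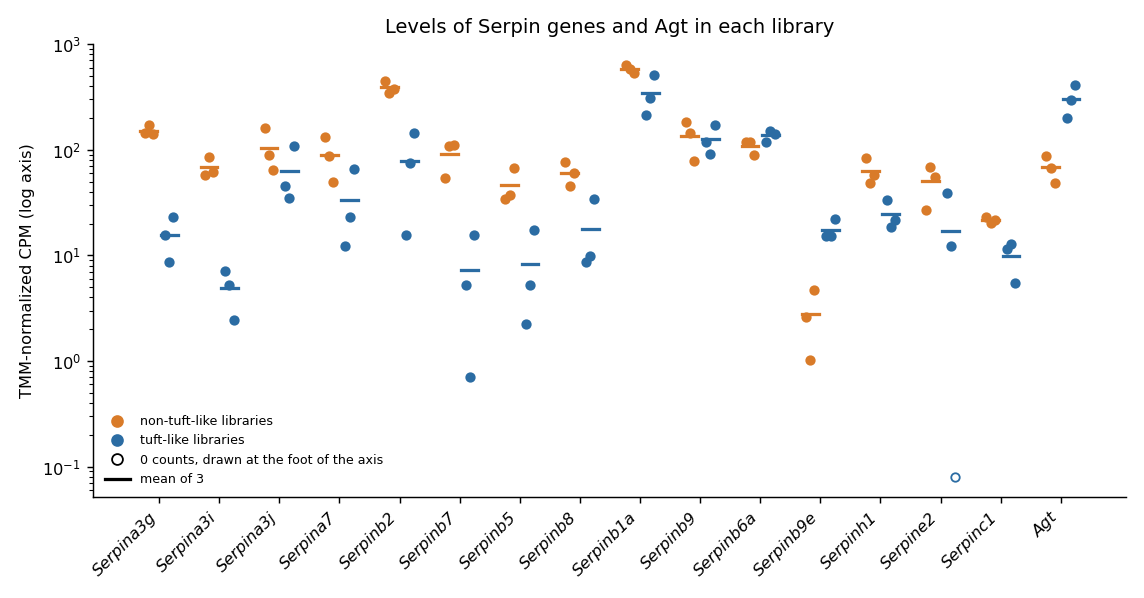
TMM-normalized CPM (log axis) of 15 Serpin genes and Agt in each library, with the mean of 3 as a bar. Orange points are non-tuft-like, blue points tuft-like, and an open point is a count of 0. The libraries of the populations do not overlap for Serpina3g and Serpina3i, both called lower by edgeR, nor for Agt, called higher. They do not overlap for Serpinb2, Serpinb7, Serpinb5, Serpinb8, Serpinb1a, Serpinb9e, Serpinh1 and Serpinc1 either, of which edgeR called 0.

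Clade B serpins lack a signal peptide and act mostly inside cells. Its members added up to 1679 ± 141 CPM in the non-tuft-like libraries and 867 ± 317 CPM in the tuft-like ones. Of 24 tested members 0 were called in either direction by edgeR, 6 were lower and 1 higher at an unadjusted p under 0.05, and the median log2 fold change was -0.83. The 26 members lie in 2 clusters, 11 on chromosome 1 and 15 on chromosome 13. The cluster on chromosome 1 carries serpins of stratified squamous epithelium such as epidermis, and its transcripts were fewer in each tuft-like library. The cluster summed to 801, 777 and 773 CPM in the non-tuft-like libraries and 96.8, 187 and 347 CPM in the tuft-like ones. The non-tuft-like libraries lay close together, whereas tuft-like replicate 3 had more than any other tuft-like library. In 6 of 10 tested members the tuft-like libraries all lay below the non-tuft-like ones, beside 8.85% of all tested genes. The median log2 fold change of the cluster was -1.63, beside 0.02 over all tested genes.

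Serpinb2 (ENSMUSG00000062345, chr1:107511423-107535478, plus strand), plasminogen activator inhibitor 2, led the cluster with 449, 347 and 373 CPM in the non-tuft-like libraries and 15.5, 74.6 and 144 CPM in the tuft-like ones. Its means were 389.7 ± 53.0 and 77.9 ± 64.1 CPM (SD, n = 3 each), and the difference did not pass the threshold (edgeR log2 fold change -2.32, SE 0.62, FDR 0.11), although 8 of 15 alternative settings called it, with an FDR between 0.000185 and 0.334 over all 15. Serpinb2 shares 291 bases of exon with Serpinb10 on the same strand. Serpinb7 (chr1:107399655-107452689, plus strand), an inhibitor in the cornified epidermis, had 53.5, 109 and 111 CPM in the non-tuft-like libraries and 5.25, 0.702 and 15.7 CPM in the tuft-like ones. All tuft-like values were below the lowest non-tuft-like value, and they spread widely among themselves (edgeR log2 fold change -3.66, SE 0.85, FDR 0.0629). Of 15 alternative settings 9 called Serpinb7, with an FDR between 1e-05 and 0.389. Serpinb5, known as maspin, had 34.1, 37.6 and 66.7 and 2.23, 5.26 and 17.4 CPM (edgeR log2 fold change -2.47, FDR 0.124). Serpinb8 had 76.2, 45.4 and 59.7 and 8.64, 9.88 and 34.2 CPM (edgeR log2 fold change -1.78, FDR 0.172), and 5 of 15 settings called each of these genes. In both, tuft-like replicate 3 was the highest tuft-like library, and the fit without it called both. Serpinb11 had 73.7, 149 and 76.8 and 16.4, 23.2 and 67.6 CPM (edgeR log2 fold change -1.48, FDR 0.299), with tuft-like replicate 3 close to the non-tuft-like libraries. Of 15 alternative settings 2 called Serpinb11 lower, DESeq2 and the edgeR fit without tuft-like replicate 3 (edgeR FDR 0.0226). Serpinb12, an epithelial serpin, overlapped between the populations, with 97.2, 65.2 and 77.3 and 41.5, 51.8 and 68.8 CPM (edgeR log2 fold change -0.56, FDR 0.76).

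The mouse relatives of the squamous cell carcinoma antigens lie in the same cluster and were low. Serpinb3a had 319, 403 and 192 reads in the 3 libraries of non-tuft-like and 35, 708 and 0 in those of tuft-like cells, so that nearly all of its tuft-like signal came from replicate 2. Serpinb3c had 116, 639 and 33 and 15, 1 and 1 reads, without overlap and with non-tuft-like replicate 2 far above the rest (edgeR log2 fold change -4.77, SE 1.73, FDR 0.327). Of the 14 alternative settings that tested Serpinb3c, 1 called it lower (DESeq2 FDR 0.0137). Serpinb3d had 34, 14 and 3 reads in non-tuft-like libraries and 0 in all 3 tuft-like libraries and was not tested. Serpinb3b and Serpinb13 had means of at most 1.53 CPM in either population. The 4 Serpinb3 genes shared between 12.2% and 15% of their 50-base stretches with other genes. The list of squamous serpins, which holds Serpinb2, Serpinb5, Serpinb7, Serpinb12, Serpinb13 and the 4 Serpinb3 genes, had 8 tested members, with 0 called, 4 lower at an unadjusted p under 0.05 by edgeR and a median log2 fold change of -1.44. Its sum was 623 ± 36.1 CPM in the non-tuft-like libraries and 157 ± 86.9 CPM in the tuft-like ones.

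Keratinocyte markers were measured beside these serpins. All 10 markers had a log2 fold change below 0, with a median of -3.09, and 6 were called lower (Dmkn, Sbsn, Ivl, Spink5, Calm4 and Grhl1). Their sum was 4482, 6769 and 6831 CPM in the non-tuft-like libraries and 232, 665 and 1610 CPM in the tuft-like ones. The chromosome 1 cluster had the same order of tuft-like libraries, but so had the tuft list and the mature mTEC list. This order is therefore not particular to keratinocyte genes. The most abundant marker was Krtdap with 1315, 1715 and 1798 and 23.2, 144 and 396 CPM (edgeR log2 fold change -3.10, FDR 0.0917), and 0 of the 10 were at 0 in all libraries. The part of keratinocyte-like mTEC in the levels of the squamous serpins was not tested. Proteases of the same tissue were measured as well. Of 7 epidermal kallikreins, serine proteases of cornified epithelium, 5 were called lower and 0 higher. Their median log2 fold change was -2.91, with sums of 1169 ± 82.4 and 93.3 ± 14.1 CPM. Klk7 (chr7:43811294-43816359) had 709, 776 and 787 CPM in the non-tuft-like libraries and 26.5, 24.6 and 71.3 CPM in the tuft-like ones (edgeR log2 fold change -4.21, SE 0.48, FDR 0.00133) and was called in 15 of 15 alternative settings. Klk5 had 47.05, 39.1 and 39.4 and 0.703, 2.66 and 3.01 CPM (edgeR log2 fold change -4.29, FDR 0.00404), and 14 of 15 settings called it. The calls of Klk8, Klk10 and Klk14 (log2 fold changes -2.91, -2.62 and -2.64, edgeR FDR 0.0481, 0.0411 and 0.0355) were made in 9, 8 and 9 of 15 settings.

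**Figure D4:**
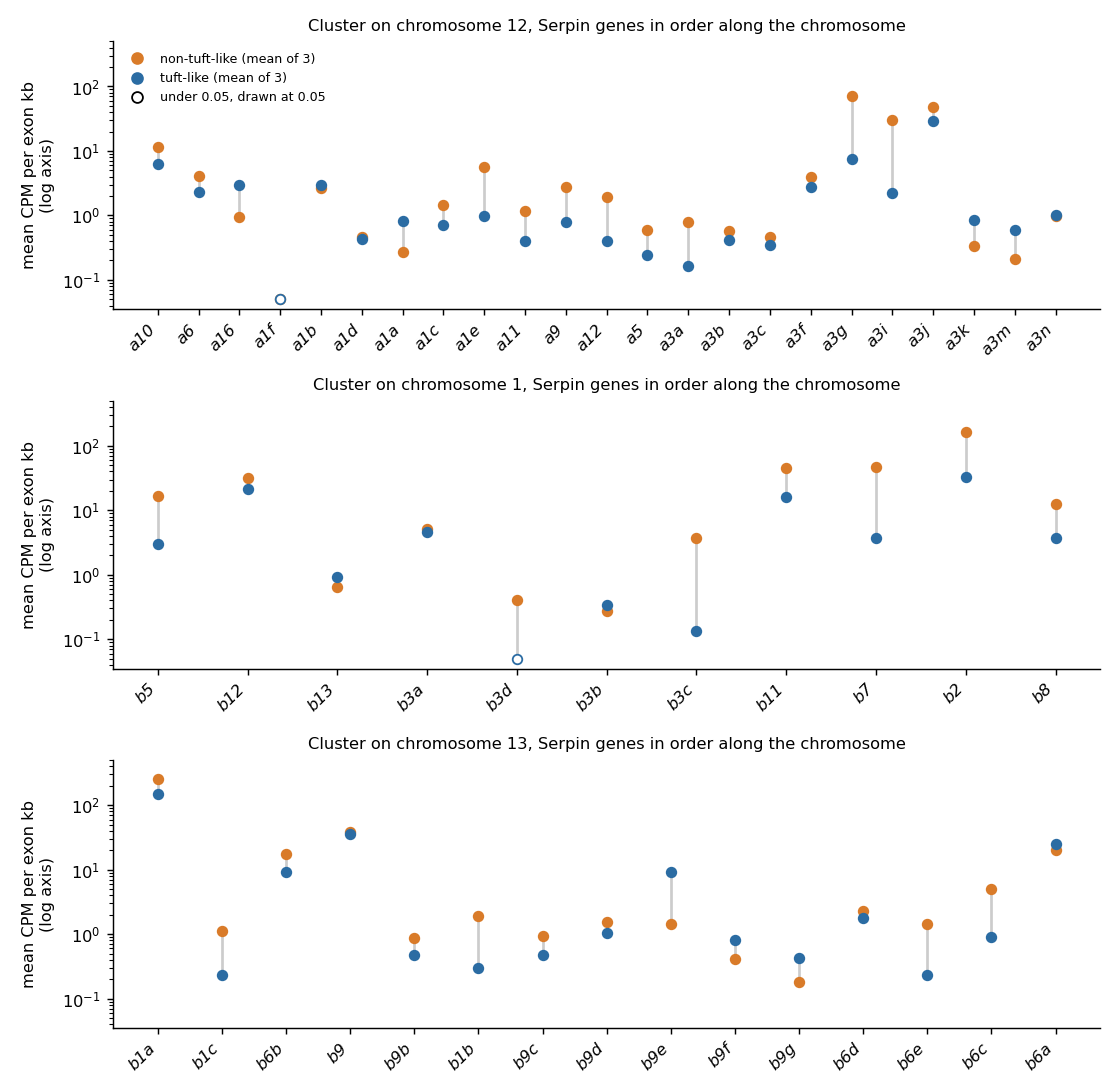
Mean CPM per kilobase of exon (log axis) of the Serpin genes of 3 genomic clusters, in their order along the chromosome, with non-tuft-like in orange, tuft-like in blue and a grey line between the means of a gene. Names leave out Serpin. In the chromosome 12 cluster a3g and a3i drop steeply next to a3j, in the chromosome 1 cluster, where edgeR called 0 members, the means of b7, b2, b5 and b8 lie further apart than those of b11 and b12, and in the chromosome 13 cluster, again with 0 called, the means of b9 and of b6a lie close together while b9e has its tuft-like mean above the other. Among tested members of the chromosome 1 cluster the widest gap is that of b3c, at low levels (3.68 and 0.136 CPM per kilobase). Means under 0.05 are drawn at 0.05, which holds for both means of Serpina1f (0 in non-tuft-like mTEC) and for the tuft-like mean of Serpinb3d.

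The cluster on chromosome 13 carries intracellular inhibitors of proteases of leukocytes, such as neutrophil elastase, cathepsin G and granzymes. Of its 14 tested members 0 were called by edgeR, and 1 was higher and 0 lower at an unadjusted p under 0.05. Serpinb1a (ENSMUSG00000044734, chr13:32842092-32851185, minus strand), the leukocyte elastase inhibitor, was the most abundant Serpin gene per kilobase of exon in both populations. It had 639.7, 577 and 532 CPM in the non-tuft-like libraries and 215, 310.5 and 506 CPM in the tuft-like ones, with tuft-like replicate 3 just below the lowest non-tuft-like library (edgeR log2 fold change -0.76, SE 0.36, FDR 0.604). It was called lower in 2 of 15 alternative settings, by library size only and with the filter of at least 10 CPM (lowest edgeR FDR 0.0415). Serpinb9 (chr13:33003250-33017957, plus strand), an inhibitor of granzyme B, had 183, 144 and 77.8 and 119, 90.8 and 169.7 CPM. The populations overlapped fully (edgeR log2 fold change -0.09, SE 0.37, FDR 1). Serpinb6a (chr13:33917918-34002794, minus strand), an inhibitor of cathepsin G, had 119, 119 and 88.6 and 118, 152 and 139.5 CPM (edgeR log2 fold change 0.32, SE 0.27, FDR 1), and 1587 bases of its exons overlap other genes on the opposite strand, among them Nqo2 and Ripk1. Serpinb6b was at 39.8 ± 14.3 and 20.8 ± 9.81 CPM (SD, n = 3 each), with overlap.

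Serpinb9e (ENSMUSG00000062342, chr13:33249612-33260850, plus strand) went the other way from most of the family. It had 82, 48 and 148 reads in the 3 libraries of non-tuft-like and 371, 522 and 795 in those of tuft-like cells, or 2.59, 1.02 and 4.704 and 15.3, 15.3 and 21.96 CPM. All tuft-like libraries were above all non-tuft-like libraries, and tuft-like replicate 3, which had 26 Serpin genes at 0, was the highest. The difference did not pass the threshold (edgeR log2 fold change 2.66, SE 0.74, FDR 0.126), and 1 of 15 alternative settings, DESeq2, called it. Serpinb9e shares 28.4% of its 50-base stretches with other genes, most often with Serpinb9f. Serpinb9f, of which 78.7% is shared, had 53, 87 and 0 reads in tuft-like libraries and Serpinb9g 14, 65 and 0, and neither gene had a read in replicate 3. Of the remaining members, Serpinb6c had 107, 129 and 456 and 48, 59 and 0 reads (edgeR log2 fold change -2.47, FDR 0.942), with non-tuft-like replicate 3 far above the others. Serpinb6e had 193, 3 and 6 and 3, 27 and 5 reads, so that its signal came from non-tuft-like replicate 1, and it was not tested. Serpinb1c had 57, 111 and 43 and 23, 6 and 0 reads and did not overlap between the populations (edgeR log2 fold change -2.30, FDR 1). The list of leukocyte protease inhibitors, which also holds Serpinb8, had 15 tested genes, with 0 called, 1 higher and 1 lower at an unadjusted p under 0.05 by edgeR and a median log2 fold change of -0.76.

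Transcripts of leukocyte serine proteases, which are among the targets of these inhibitors, were scarce. The 11 leukocyte serine proteases summed to 16.8 ± 7.98 CPM in the non-tuft-like libraries and 15.9 ± 3.53 CPM in the tuft-like ones, and of 9 tested 0 were called (1 lower at an unadjusted p under 0.05 by edgeR). The most abundant in tuft-like libraries was Gzmm, granzyme M, with 0.505, 1.13 and 6.198 and 1.61, 5.44 and 12.8 CPM. Elane, Prtn3 and Ctsg, the neutrophil targets, had means of at most 0.717 CPM. Markers of leukocytes themselves differed between lists. The thymocyte list, led by Lck in non-tuft-like and by Rag1 in tuft-like libraries, summed to 18.2, 29.2 and 14.9 and 28.97, 17.4 and 6.24 CPM, and 0 of 5 tested genes were called. The macrophage and dendritic cell list summed to 344, 297 and 214 and 179.8, 124 and 188 CPM, without overlap, and all 7 genes had a log2 fold change below 0 (median -0.73). Lyz2 was its most abundant gene, with 78.2% and 88.6% of the sum, and Cd68 was the only gene called, with 39.3 ± 8.47 and 3.99 ± 0.428 CPM (edgeR log2 fold change -3.30, FDR 0.0028). The neutrophil list summed to 121 ± 21.0 and 147 ± 86.0 CPM. Of its 6 genes 5 had a log2 fold change below 0 (median -1.73), with S100a8 and S100a9 lower at an unadjusted p under 0.05 by edgeR, while Ltf, at 1.69, made up 85.9% of the tuft-like sum. The mast cell list summed to 428, 398 and 247 and 75.4, 62.1 and 193 CPM, of which Hdc made up 98.8% and 95.2%. Of its 5 tested genes 3 had a log2 fold change above 0 (median 0.53), and Hdc and Tpsb2 were lower at an unadjusted p under 0.05 by edgeR. Of the neutrophil and mast cell lists 0 genes were called. The part of such cells in the Serpinb levels was not tested.

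Serpins of fibrinolysis and matrix, from clades E, F and H, were at a log2 fold change below 0 in 5 of 5 genes (median -1.56), with 0 called and 1 lower at an unadjusted p under 0.05 by edgeR. Of these Serpinf1, at -0.03, turned above 0 with RLE factors, by DESeq2, by limma voom and with the replicate block, among other settings. Serpinh1 (chr7:99345376-99353239, minus strand), the collagen chaperone of the endoplasmic reticulum, which does not inhibit proteases, had 83.1, 48.6 and 57.5 CPM in the non-tuft-like libraries and 33.7, 18.4 and 21.8 CPM in the tuft-like ones. The populations did not overlap (edgeR log2 fold change -1.36, SE 0.36, FDR 0.105), and 1 of 15 settings, DESeq2, called it. Serpine2, an inhibitor of thrombin and urokinase, had 26.9, 68.2 and 55.8 CPM in the non-tuft-like libraries and 39.2, 12.2 and 0 CPM in the tuft-like ones, with tuft-like replicate 3 at 0 and replicate 1 within the non-tuft-like range (edgeR log2 fold change -1.56, SE 1.29, FDR 1). Serpine3 had 22, 42 and 47 and 60, 106 and 100 reads and was higher in each tuft-like library, at means of 1.03 ± 0.416 and 2.78 ± 0.310 CPM (edgeR log2 fold change 1.43, SE 1.29, FDR 1). However, 348 bases of Serpine3 exons overlap Ints6 on the opposite strand, and 15.7% of its 50-base stretches are shared with that gene. Fibroblast markers summed to 29.8, 30.4 and 52.3 and 99.5, 63.9 and 14.8 CPM, with Dcn as the most abundant, and endothelial markers to 20.6, 32.2 and 31.4 and 188, 32.7 and 9.33 CPM, with Pecam1 at 106, 8.16 and 3.06 CPM in the tuft-like libraries. All 5 fibroblast and all 5 endothelial markers had a log2 fold change above 0 (medians 1.17 and 1), 0 of the 10 were called, and Pecam1 was higher at an unadjusted p of 0.0436 by edgeR. The part of such cells in the levels of these serpins was not tested.

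Of the remaining genes, those of clades G and I and Serpinf1 of clade F, 0 were called and 0 were at an unadjusted p under 0.05 by edgeR. Serpini1, neuroserpin, had 53.4, 32.9 and 30 CPM in the non-tuft-like libraries and 23.9, 28.1 and 22.4 CPM in the tuft-like ones, without overlap but with a small difference (edgeR log2 fold change -0.64, SE 0.35, FDR 0.798). Serping1, the inhibitor of complement C1, had 13.6, 13.3 and 10.8 and 18.1, 7.51 and 15.9 CPM (edgeR log2 fold change 0.14, FDR 1). Serpinf1, pigment epithelium-derived factor, had 2.05, 9.45 and 9.69 and 8.84, 4.53 and 7.401 CPM (edgeR log2 fold change -0.03, FDR 1). The sign of the last 2 fold changes depended on the setting. Serpini2 had means of 0.865 ± 1.43 and 0.6696 ± 0.810 CPM (SD, n = 3 each).

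Levels can be compared between genes only per length. In non-tuft-like mTEC the highest mean levels per kilobase of exon were those of Serpinb1a (253 CPM per kilobase), Serpinb2 (166), Serpina3g (72.1), Serpina3j (48.2), Serpinb7 (46.7) and Serpinb11 (45.6). In tuft-like mTEC the order was Serpinb1a (149 CPM per kilobase), Serpinb9 (36.2), Serpinb2 (33.2), Serpina3j (29.3), Serpinb6a (25.2) and Serpinb12 (21.6). Neighbours in these orders were not tested against each other. Below the abundant genes lay a long tail. Of the 61 members, 14 were over the olfactory receptor level in all 6 libraries, 23 in all 3 non-tuft-like libraries and 15 in all 3 tuft-like libraries, and 18 exceeded it in no library. Serpina1e and Serpinb6c exceeded it in all non-tuft-like and in no tuft-like library, and Serpinb9e did the reverse. A mean under 5 CPM in both populations was found for 27 members, and 23 of these had no read in tuft-like replicate 3. Several members owed their level to 1 library. Serpina12, known as vaspin, had 38, 806 and 85 reads in non-tuft-like and 47, 82 and 6 in tuft-like libraries, with non-tuft-like replicate 2 far above the others. Serpinb6e, Serpinb3a and Serpinb6c, given above, were of the same kind.

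Agt, angiotensinogen, has a serpin fold but not a Serpin symbol, and it was higher in tuft-like mTEC. Agt (ENSMUSG00000031980, chr8:124556534-124569706, minus strand) had 87.97, 67.7 and 48.6 CPM in the non-tuft-like libraries and 199, 299 and 409.8 CPM in the tuft-like ones, without overlap. The means were 68.1 ± 19.7 and 303 ± 105 CPM (SD, n = 3 each), with a log2 fold change of 2.15 (SE 0.36, FDR in edgeR 0.0117). The call was made in 14 of 15 alternative settings, the exception being the fit that left out replicate 2 of the non-tuft-like libraries (edgeR FDR 0.0691).

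Proteases and partners of serpins were taken from lists of 59 genes in the table, of which 56 were tested, 9 called lower and 1 higher in tuft-like mTEC. Among 14 tested proteases of coagulation, fibrinolysis and complement, 1 was called. F12, coagulation factor XII, whose active form is inhibited by C1 inhibitor, rose from 0.0316, 0.958 and 2.29 CPM in non-tuft-like to 27.4, 30.8 and 37.4 CPM in tuft-like libraries (edgeR log2 fold change 4.86, SE 1.05, FDR 0.0435), and 8 of 15 alternative settings called it. Leaving out replicate 2 of the non-tuft-like libraries, or any 1 of the tuft-like libraries, ended the call. Plat, tissue plasminogen activator, led that list and overlapped between the populations, with 44.5, 69.2 and 60.8 and 31.4, 28.6 and 55.98 CPM. Cysteine proteases that some serpins inhibit were lower in part. Of 5 genes, Ctsl, with 274, 647 and 629 and 88.5, 130 and 176 CPM (edgeR log2 fold change -1.98, FDR 0.0358), and Ctsh, with 261, 294 and 232 and 42.1, 68.8 and 108 CPM (edgeR log2 fold change -1.84, FDR 0.0278), were called lower. Leaving out libraries 1 at a time ended the call of Ctsl in 4 of 6 cases (FDR up to 0.176), the exceptions being replicate 1 of the non-tuft-like and replicate 3 of the tuft-like libraries. Ctsb, the most abundant of them, was not called, at 675 ± 46.7 and 395 ± 141 CPM (edgeR FDR 0.522). Among 5 cofactors and clearance receptors, Lrp1 (chr10:127538161-127621148), a receptor that removes serpin and protease complexes, fell from 108, 92.1 and 121 to 22.4, 12.4 and 8.78 CPM by library (edgeR log2 fold change -2.89, SE 0.39, FDR 0.00324), and all 15 alternative settings called it. The 5 membrane-anchored serine proteases had a median log2 fold change of -0.28, with 0 called and 1 lower at an unadjusted p under 0.05 by edgeR. The most abundant, St14 (matriptase), had 477, 429 and 336 and 242, 309.8 and 469 CPM. Among 11 protease inhibitors of other families, secreted, membrane-bound or intracellular, the median log2 fold change was 0.02, and only Cst6, a cystatin of epidermis, was called, with 910.1, 1315 and 935 and 186, 128 and 298 CPM (edgeR log2 fold change -2.37, FDR 0.0113). Spint2, a membrane-bound Kunitz inhibitor and the most abundant of that list in tuft-like mTEC, had 309.8, 772 and 694 and 341, 702 and 1119 CPM.

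**Figure D5:**
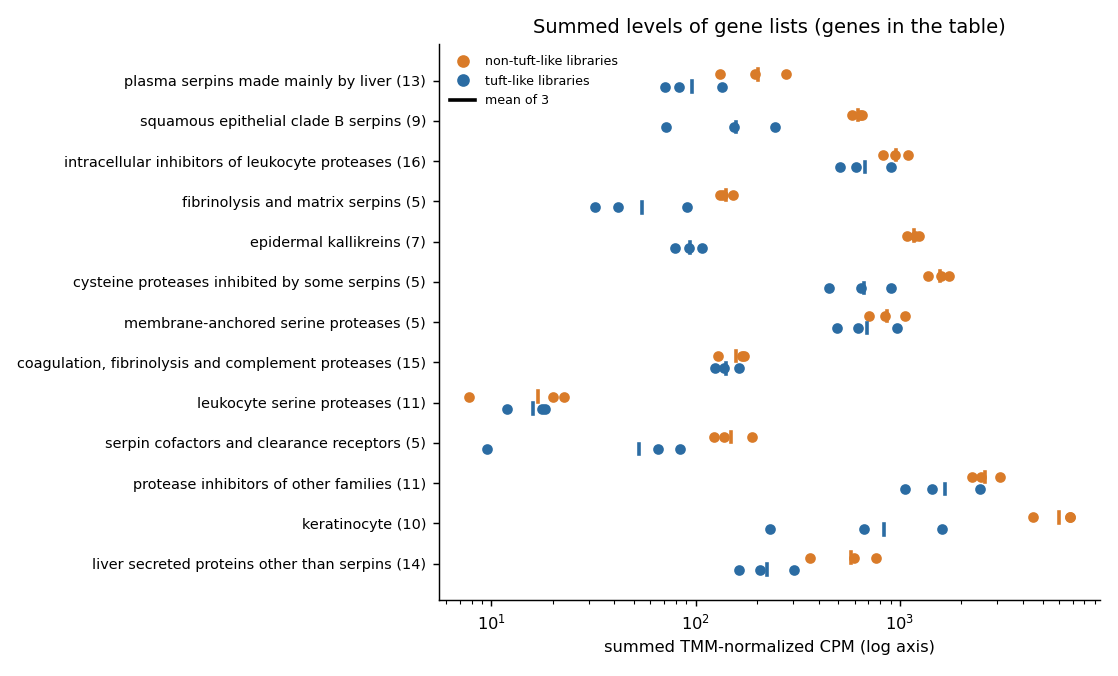
Summed TMM-normalized CPM (log axis) of 4 Serpin role lists, 7 lists of proteases, partners and other inhibitors, and the keratinocyte and liver lists in each library, with the number of genes in the table in brackets and the mean of 3 as a bar. Orange is non-tuft-like and blue tuft-like. The squamous serpins, epidermal kallikreins and keratinocyte markers separate between the populations, while leukocyte serine proteases and proteases of coagulation, fibrinolysis and complement overlap.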

How the data were processed

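Libraries of bulk RNA, 3 for each population, were prepared with the SMARTer Ultra Low Input RNA Kit. According to the methods, cells were sorted into trizol, while the labels give an RNeasy extraction. Per the submitters' processing notes, reads were trimmed with Trimmomatic 0.36, aligned to mm10 with STAR 2.7.3a and assigned to genes with HTSeq. The annotation release and the strand setting are not given in the sources used here. The authors deposited unadjusted counts, as whole reads per gene, for 52636 gene rows, 92 ERCC rows (all at 0) and 5 HTSeq rows of unassigned reads, which were left out of library sizes and tests. No molecular identifiers were used, so that reads are not independent molecules and floors cover counting error only.

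Groups were taken from the sample labels. Symbols, exons and gene types came from GENCODE M21 of mm10, which named 99.56% of gene rows, and upstream sequences from RefSeq. R 4.3.3 and edgeR 4.0.16 were used. Genes passed filterByExpr (minimum count 10, minimum total 15), were normalized by TMM and tested with the quasi-likelihood F-test over all genes, with Benjamini-Hochberg adjustment and an FDR threshold of 0.05. Standard errors (SE) were approximated from the log2 fold change and its F statistic. The code was tested on simulated data. Shared sequence was measured as the percentage of 50-base stretches of a gene's transcripts that occur in other genes. No pair of libraries had identical counts.

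The members and the lists were chosen with earlier results of these data known. Named were the Serpin genes called, the leading member of each clade in each population, the 10 genes of largest change without overlap that were not called, the 5 genes most dominated by 1 library, and genes called or most abundant in the partner and marker lists. Other Serpin genes are given for completeness and were chosen after their values were seen. Single values of some genes are not reported here. Alternatives were RLE factors, library size only, no filter, a filter of at least 10 CPM in at least 3 libraries, DESeq2 1.42.0, limma voom (limma 3.58.1), the replicate number as a block, subtraction of the olfactory receptor background per exon length and each library left out in turn, with 1 more added after the data were seen (replicate 1 of the tuft-like and replicate 3 of the non-tuft-like libraries left out together), 15 in all.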

Additional observations from a re-analysis of the deposited data

Results flagged for a closer look

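Several values lie outside the comparison of protein-coding genes. Reads that HTSeq assigned to no gene made up as much as 61.6% of all rows in tuft-like replicate 1, and this share ran from 19.7% upwards over the 6 libraries. Reads were also counted on 7 Serpin rows that are not annotated as protein-coding, and each had more reads than the 3 taken as the floor. Serpina3h, a transcribed pseudogene between Serpina3g and Serpina3i, had the most, up to 1362 reads in non-tuft-like replicate 2. It had 355, 1362 and 773 reads in non-tuft-like and 168, 8 and 229 reads in tuft-like libraries, and its log2 fold change of -2.26 did not pass the threshold (edgeR FDR 0.501). Serpina3h shares 21.9% of its 50-base stretches with other genes. Serpina3e-ps reached 807 reads, in tuft-like replicate 3, the library with the most Serpin genes at 0. Serpinb10, annotated as a polymorphic pseudogene, reached 224 reads, and it shares exon with Serpinb2. The highest counts of the other rows were 129 for Serpinb1-ps1, 82 for Serpina3d-ps, 38 for Serpina4-ps1 and 24 for Serpina3l-ps.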

How the results depend on the processing

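Serpina3g and Serpina3i were called lower under all 15 alternatives, and the log2 fold changes of the Serpin genes kept a median below 0 under each. The number of calls did change. Serpin genes called lower numbered 2 of 57 tested and became 5 of 57 by library size only and 6 of 61 without a filter. They were 7 among the 21 with at least 10 CPM in at least 3 libraries, 9 by DESeq2 and 4 by limma voom. With each library left out in turn they were 2 to 8 of 58 or 59, the most without tuft-like replicate 3. DESeq2 called 1 Serpin gene higher, where the edgeR fit called 0. The replicate number was also used as a block, but same-numbered libraries did not deviate together (correlations of -0.0965, -0.0375 and -0.274), so the numbers were not taken as pairs. Over all genes, 378 were higher and 309 lower. These became 839 and 694 with the filter of at least 10 CPM, 974 and 930 by DESeq2, and 231 and 94 without both libraries with the most reads outside genes. The number lower was 526 of 32496 tested by library size only, 577 of 47762 without a filter and 505 of 26546 after background subtraction. Leaving out each library gave 220 to 467 higher and 154 to 612 lower, among 33889 to 37680 tested genes. The partner lists' 1 call higher became 0 by library size only, after background subtraction and without both libraries, and 0 to 1 with each library left out. Their 9 calls lower became 5 without both libraries and 3 to 8 with each library left out.

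The sign of the log2 fold change turned under at least 1 alternative in 19 of the 57 tested Serpin genes, 0 of which were called in any setting, with Serpinb9 (-0.40 to 0.16) and Serpina6 (-1.36 to 0.40) among them. Of the Serpin genes named by rule it turned in 3. Serpinb3a (-0.16 in the reported fit) ranged from -3.53 to 0.39 with each library left out, being at 0, 0.33 and 0.39 without non-tuft-like replicate 1, tuft-like replicate 1 or tuft-like replicate 3, and at 0.16 without both libraries. Serpinf1 (-0.03 as reported) was at 0.01 with RLE factors and by DESeq2, 0.08 by limma voom, 0.16 with the replicate block, -0.48 to 0.24 with each library left out, and 0 without both libraries. Serping1 (0.14 as reported) was at -0.01 by limma voom, -0.10 to 0.43 with each library left out, and -0.25 without both libraries. The cause was not tested. The median over all genes shifted to -0.17 by limma voom and to between -0.20 and 0.15 with a library left out. With 3 libraries a group and a common biological coefficient of variation of 1.10, a Serpin gene that was not called is not shown to have equal levels.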

Other observations

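A list of genes of enterocytes, hepatocytes or both was present in both populations. Of its 9 genes 7 had a log2 fold change below 0 (median -1.10), 1 was called lower and 0 higher, and their sums were 528.8, 261.8 and 260.8 CPM in non-tuft-like and 233.2, 319 and 520.4 CPM in tuft-like libraries, with overlap. The gene called was Apoa4, an apolipoprotein of the small intestine, with 81.9, 41.6 and 59.2 CPM in non-tuft-like and 8.596, 8.21 and 15.6 CPM in tuft-like libraries (edgeR log2 fold change -2.49, FDR 0.0113). Cdhr5, a protein of the brush border, was the most abundant and made up 35.8% of the sum in non-tuft-like and 75.4% in tuft-like mTEC (edgeR log2 fold change 1.11, FDR 0.26). Hnf4a, a transcription factor of liver and intestine, had means of 41.2 and 19.3 CPM (edgeR FDR 0.77), and Hnf4g had 17.2 and 23.0 CPM (edgeR FDR 1).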
